A study of Mus musculus with 16 samples.

Results

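Whether loss of Meis1 and Meis2 changed the same transcripts in atria as in ventricles was asked gene by gene in 8 adult male littermate mice, each of which gave 1 atrial and 1 ventricular RNA library. All 8 mice were Meis1flox/flox and Meis2flox/flox. The 4 inducible double knockout (idKO) mice, CDA288 to CDA291, carried the alpha-MHC-MerCreMer transgene on 1 chromosome (tg/wt), and the 4 control mice, CDA287, CDA292, CDA293 and CDA294, did not (wt/wt). MerCreMer is a Cre recombinase that tamoxifen switches on, and the alpha-MHC promoter restricts it to heart muscle cells. Hearts were taken 2 weeks after tamoxifen; the age of the mice is not given in the sources used here. Since no control carried the transgene, an effect of the transgene or of active Cre cannot be told apart from that of the deletion. The measure was the difference between chambers within a mouse, on the scale log2(normalised read count + 1), and the interaction was the mean of this difference in idKO mice minus its mean in control mice. A positive interaction therefore means that the idKO effect was more positive, or less negative, in atria. Of 16118 genes in the deposited table, 14871 reached 1 CPM of a library's summed values in at least 4 libraries and were tested, and 102 of them had a called interaction.

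MEIS1 and MEIS2 are homeodomain transcription factors of the TALE class that bind DNA with PBX partners and take part in heart development. Atrial and ventricular muscle share most of the contractile machinery but differ in secretion, electrical properties and energy use. Atria make and store natriuretic peptides, and ventricles are richer in mitochondria and in the channels and junctions of fast, forceful contraction.

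The libraries held 13.1 to 21.8 M (mega) reads in genes, recovered from the deposited values. Myl2, the ventricular regulatory myosin light chain, measured 28.95, 22.01, 3.28 and 1.46 in the control atria and 77.05, 42.8, 111 and 3.54 in the idKO atria (mice in ascending number, here and below, with control before idKO where a chamber's groups are not named), against 6769 to 8857 over the 8 ventricles. That was at most 0.347% of the same mouse's ventricle in controls and at most 1.52% in idKO mice, so 3 of the 4 idKO atria held more of this ventricular transcript than any control atrium. Myl7, the atrial regulatory light chain, stood in ventricles at no more than 0.307% of the same mouse's atrium. Reads from genes of the mitochondrial genome are included in these libraries and took 17.2% of reads in atria of either genotype, 30.9% in control ventricles and 29.0% in idKO ventricles. In whole tissue, fewer cells of a type and less RNA per cell cannot be told apart.

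The targeted genes themselves responded unequally. Meis2 (chromosome 2, 115863064 to 116065839) measured 32.6, 26.6, 22.4 and 25.6 in control ventricles and 7.78, 8.51, 9.35 and 9.66 in idKO ventricles, in normalised read counts. In atria it measured 22.1, 18.7, 19.4 and 19.7 in controls and 15.3, 18.98, 18.05 and 18.5 in idKO mice. The ventricular values did not overlap between genotypes, whereas the atrial ones did. The remaining level was 32.96% of control in ventricles and 88.8% in atria, and the interaction was 1.33 ± 0.13 (SE; limma adjusted p = 6.9e-05). An exact permutation of the 8 mice gave p = 0.029 for Meis2, two-sided, which is the smallest the 70 assignments allow, and 0.057 after adjustment over the 2 targeted genes. Meis1 (chromosome 11, 18879817 to 19018985) measured 26.8, 28.4, 26.9 and 26.96 in control ventricles, 25.4, 23.3, 23.6 and 19.9 in idKO ventricles, 27.3, 27.9, 25.7 and 32.4 in control atria and 26.4, 30.3, 28.9 and 33.01 in idKO atria. All 4 idKO ventricles lay below all control ventricles, and the atria overlapped. Its interaction of 0.30 ± 0.14 was not called (limma adjusted p = 0.46; exact permutation p = 0.057, adjusted 0.057), and with values divided by their column sum it was 0.22 (exact permutation p = 0.23). These totals count any transcript that a deleted allele still makes. The relatives and partners Meis3 and Pbx3 had interactions of -0.52 and -0.06, neither called. Meis2 was the only 1 called of the 10 tested genes in the TALE list. That list does not hold the Irx genes, which are also of the TALE class and of which Irx4 was called.

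The transgene's own signal also differed between chambers. Esr1 (chromosome 10, 4611593 to 5005614), a gene for an oestrogen receptor, part of which is fused to Cre on either side in MerCreMer, measured 3169, 2292, 3293 and 3641 in idKO ventricles and 170.4, 98.7, 154 and 322 in idKO atria. Control ventricles stood at 0.858, 1.84, 0.855 and 0.318 and control atria at 4.06, 5.17, 6.17 and 4.67. Every idKO library thus lay far above every control, and within an idKO mouse the ventricle exceeded the atrium by 11.3 to 23.2 times. Myh6, whose promoter drives the transgene, measured 34098 ± 2887 in control atria and 37758 ± 2151 in control ventricles (SD, n = 4), with an interaction of -0.04 ± 0.11 (limma adjusted p = 0.95). A smaller loss of Meis2 and a lower transgene signal both marked the atria, and they cannot be told apart here from a different atrial response to the same loss.

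Across all genes, the limma adjusted p of the interaction was under 0.05 for 102, or 0.686% of the tested genes. The effect was more positive in atria for 79 of them (0.531% of tested genes) and more positive in ventricles for 23 (0.155%). All 79 had a lower level in idKO ventricles (median of the log2 differences -0.62), with a median atrial difference of -0.04. All 23 had a higher level in idKO ventricles (median 0.56), again with a median of -0.04 in atria. The effect was larger in the ventricle for 99 of the 102, and for 78 the atrial effect was less than 0.25 times the ventricular one in size. The 3 exceptions were Sms-ps, Taf9 and Ctgf. Fitted on their own, the ventricles gave 206 called genes (1.39% of tested genes, 43 higher and 163 lower in idKO) and the atria gave 3 (0.0202%, all higher), with 2119 and 693 genes at an unadjusted p under 0.05. DESeq2 called 537 and 16 and edgeR 252 and 3 in these chambers. The ventricular count was 107, 114, 101, 89 and 92 without mouse CDA289, CDA290, CDA292, CDA293 and CDA294, in that order. The direction was less uneven under another scaling: with values divided by their column sum, 80 genes were called, of which 48 were more positive in atria and 32 were not, and the ventricles alone gave 99 higher and 82 lower. The within-mouse differences of the 4 idKO mice did not overlap those of the 4 control mice for 867 genes (5.83% of tested genes), 101 of the called ones among them.

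**Figure D1:**
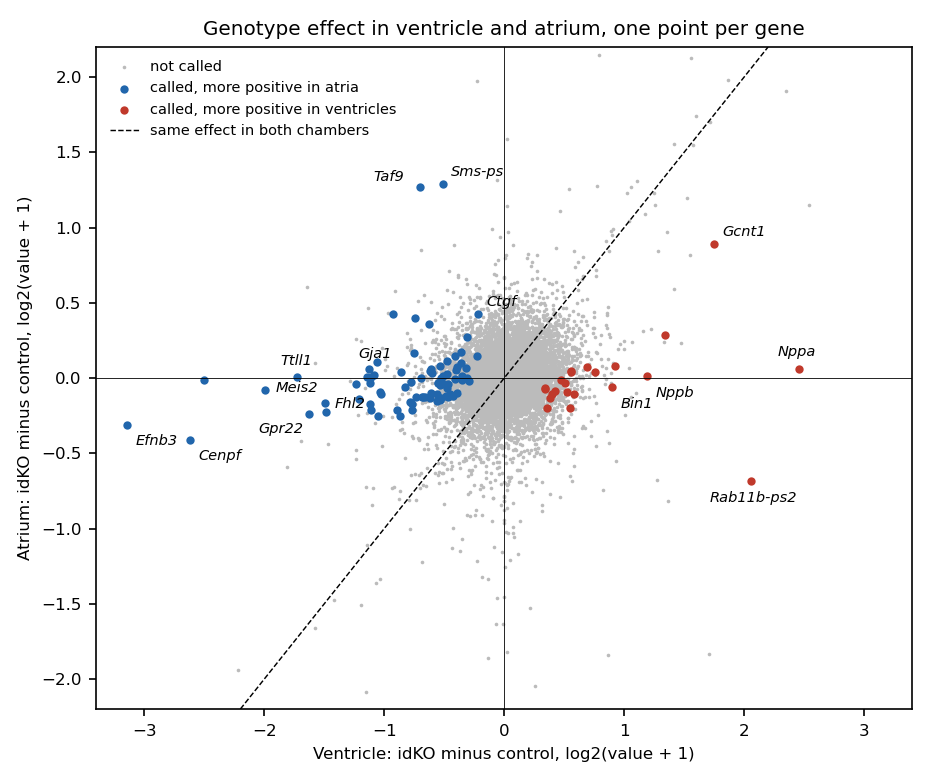
Each point is 1 of 14871 tested genes, with its idKO minus control difference in ventricles on the horizontal axis and in atria on the vertical axis, both in log2(value + 1). The called genes (blue, 79 more positive in atria; red, 23 more positive in ventricles) lie along the horizontal line at an atrial difference near 0, and 8 genes, Esr1 among them, fall outside the axes.

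The difference between the chambers could shrink, widen or turn. In control mice 61 of the 102 genes were higher in the ventricle and 41 in the atrium. For 45 genes the chamber difference kept its sign and shrank in idKO mice (36 ventricle-high and 9 atrium-high), for 32 it widened (25 atrium-high and 7 ventricle-high), and for 25 it changed sign (18 and 7 that were ventricle-high and atrium-high in controls, in that order). Over all tested genes 49.5% shrank, against 44.1% of those called. Efnb3 showed the largest shrinkage among the named genes: the atrium minus ventricle difference went from -2.95 to -0.12. Nudt4 shows a widening, from 1.83 to 2.46, and Gja1 a change of sign, from -0.53 to 0.58.

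The hexamer TGACAG, which MEIS proteins bind, was looked for on both strands (reading CTGTCA on the other) in RefSeq promoter windows of GRCm38.p6, from 250 bases before to 50 after a gene's start; a match is a run of letters and not a site shown to be bound. A window was on hand for 77 of the 102 called genes, and 27 of these (35.1%) held the hexamer, 22 of 62 (35.5%) of those more positive in atria and 5 of 15 (33.3%) of those more positive in ventricles. Of all 10816 tested genes with a window 19.8% held it, as did 19.2% of all 32851 windows. Genes with more starts have more chances; among genes with 1 window the shares were 15 of 51 (29.4%) and 16.7%. The 250 bases before the start are shown for 4 called genes with a match there, 3 that fell and 1 that rose in ventricles, with the hexamer in capitals, 5′ to 3′ on the gene's strand. They lie at chr10:117045091-117045340 (Lrrc10, plus strand, 2 matches), chr3:88716604-88716853 (Rit1, plus, 1), chr9:122294424-122294673 (Ano10, minus, 1) and chr4:148000472-148000721 (Nppa, plus, 1).
Lrrc10: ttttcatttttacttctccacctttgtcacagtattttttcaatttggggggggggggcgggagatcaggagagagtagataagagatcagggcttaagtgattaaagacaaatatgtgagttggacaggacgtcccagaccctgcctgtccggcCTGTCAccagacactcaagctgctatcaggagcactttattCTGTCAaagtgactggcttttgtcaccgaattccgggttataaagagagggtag
Rit1: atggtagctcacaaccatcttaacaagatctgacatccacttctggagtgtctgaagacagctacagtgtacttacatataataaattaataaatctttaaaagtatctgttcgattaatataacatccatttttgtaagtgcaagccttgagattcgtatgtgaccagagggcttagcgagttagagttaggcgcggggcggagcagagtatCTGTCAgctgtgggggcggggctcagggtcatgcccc
Ano10: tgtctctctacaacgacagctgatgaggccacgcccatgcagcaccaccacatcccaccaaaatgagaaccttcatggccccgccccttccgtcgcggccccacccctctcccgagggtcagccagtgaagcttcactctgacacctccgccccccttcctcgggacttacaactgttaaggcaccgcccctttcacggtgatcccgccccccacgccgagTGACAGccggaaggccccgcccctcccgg
Nppa: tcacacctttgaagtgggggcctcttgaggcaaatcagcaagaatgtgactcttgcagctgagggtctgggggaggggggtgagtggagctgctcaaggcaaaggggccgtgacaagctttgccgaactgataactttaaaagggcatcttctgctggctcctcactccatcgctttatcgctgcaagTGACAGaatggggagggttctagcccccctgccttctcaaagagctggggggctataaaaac

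After Esr1, which has the smallest p, come genes that fell in idKO ventricles and had no called effect in atria. Efnb3 (chromosome 11, 69554092 to 69560205) encodes an ephrin, a membrane-bound ligand of Eph receptors. It measured 113, 97.7, 83.3 and 120.2 in control ventricles and 14.99, 8.26, 8.74 and 12.1 in idKO ventricles. In atria it measured 10.2, 15.6, 9.56 and 15.3 and 14.7, 9.84, 8.27 and 7.59. All 4 control ventricles stood above every other library, and the idKO ventricles came down into the range of the atria (interaction 2.83 ± 0.19 SE, limma adjusted p = 9.7e-07). It was the only 1 of 15 tested ephrins and Eph receptors called; Epha4 had the next smallest p, with an interaction of 0.43. Ttll1 (chromosome 15, 83483769 to 83510893), a tubulin polyglutamylase, measured 56.5, 54.6, 63.8 and 65.5 in control and 17.8, 15.9, 16.8 and 19.4 in idKO ventricles, against 16.97, 13.1, 12.5 and 15.8 and 14.4, 14.6, 14.99 and 14.2 in atria. Its interaction was 1.73 ± 0.14 (limma adjusted p = 8.4e-06), and none of the other 15 tested enzymes of tubulin glutamylation and tyrosination was called. Cenpf (chromosome 1, 189640606 to 189688086) encodes a large protein of the kinetochore and nuclear envelope. It measured 47.2, 41.8, 58.7 and 60.4 in control ventricles and 9.07, 5.46, 9.05 and 7.03 in idKO ventricles. Atrial values were 4.37, 5.35, 5.05 and 6.16 and 2.93, 2.23, 6.85 and 3.75, so that the genotypes overlapped in atria and were apart in ventricles (interaction 2.21 ± 0.21, limma adjusted p = 5.9e-05). The other 17 tested cell cycle genes had no call, with Mki67, a marker of dividing cells, at -0.46 and Ccna2, a cyclin of S phase and mitosis, at 0.78.

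Fhl2 (chromosome 1, 43123074 to 43196984), a LIM-domain protein of the sarcomere and nucleus, measured 2316, 2397, 2064 and 2049 in control ventricles and 844, 710.3, 685 and 932 in idKO ventricles. In atria, where it is low, it measured 345, 452, 327 and 412 and 335, 285, 288.7 and 403. The ventricular groups were separate and the atrial ones overlapped, yet the idKO ventricles stayed above all atria (interaction 1.25 ± 0.08, limma adjusted p = 9.7e-07). Of 16 listed and tested LIM-domain proteins, 3 were called: Fhl2, the actin-binding Ablim1 (0.41) and, in the other direction, Fhl1 (-0.50). Fhl1, a relative of Fhl2, measured 231 ± 30.9 in control and 304 ± 39.9 in idKO ventricles and 248 ± 51.95 and 229.7 ± 34.5 in atria (SD, n = 4). Its ventricular difference was not called by itself (limma adjusted p = 0.12). Entpd5, an endoplasmic reticulum nucleotidase, measured 265, 268, 284 and 305 in control and 129, 111, 134 and 143 in idKO ventricles, and 184 ± 21.4 and 158 ± 5.02 in atria, with an interaction of 0.90 ± 0.07 (limma adjusted p = 9.4e-06). Its idKO ventricles lay below the control ventricles without overlap and were the 4 lowest libraries. In atria the genotypes all but met, with the lowest control at 162.63 and the highest idKO library at 162.49, and the atrial difference was not called (limma adjusted p = 0.97).

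**Figure D2:**
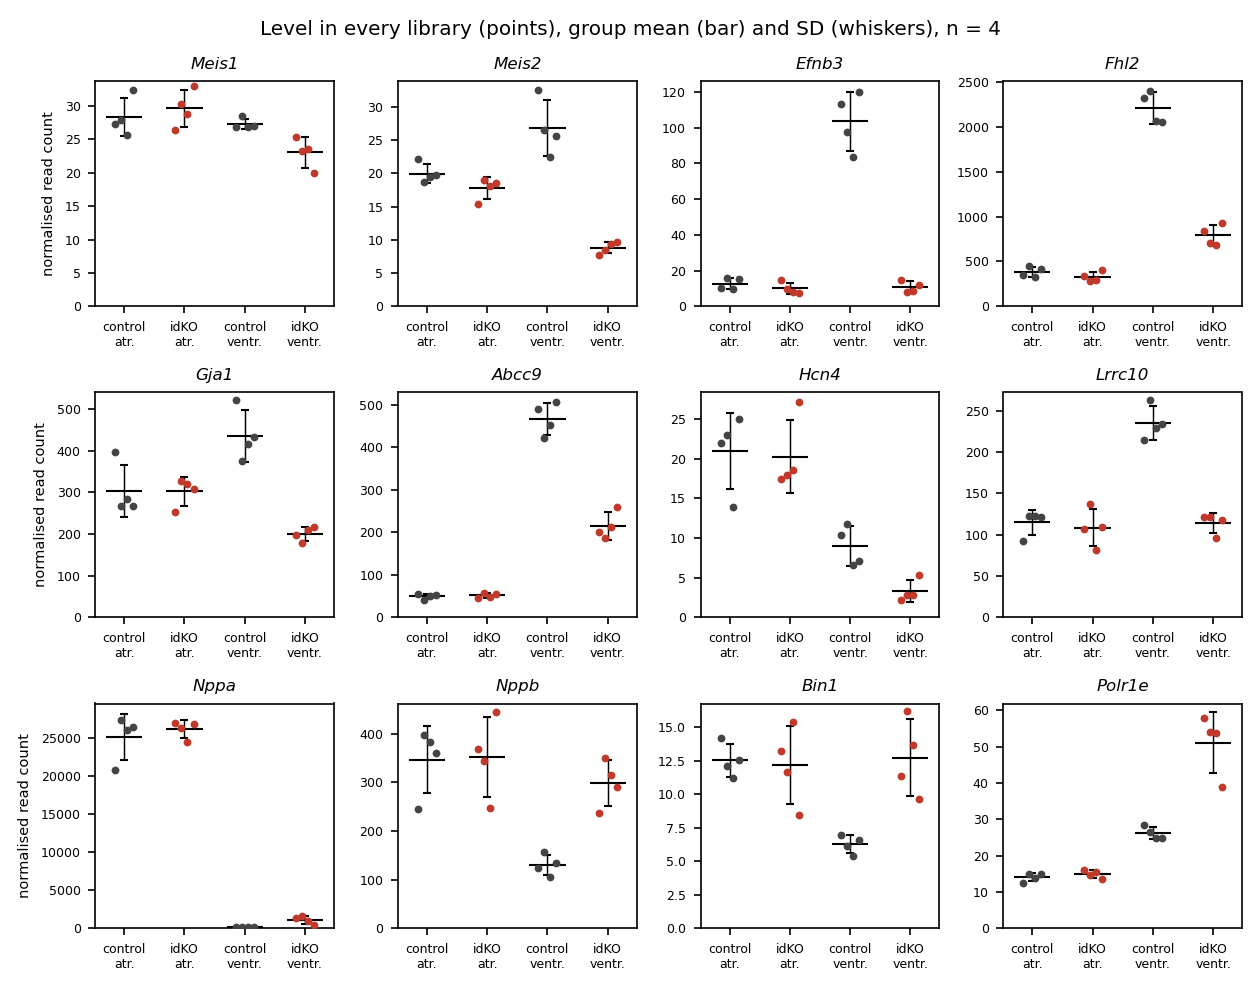
Normalised read counts of 12 genes in all 16 libraries (grey, control; red, idKO), with the group mean as a bar and the SD as whiskers, n = 4; each panel has its own linear axis from 0. Efnb3, Fhl2, Gja1 and Abcc9 drop in idKO ventricles and Nppa, Nppb, Bin1 and Polr1e rise there, with the atrial groups overlapping in all of these 8 panels.

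Ion channel and conduction genes were called on both sides. Abcc9 (chromosome 6, 142587862 to 142702315) encodes the sulfonylurea receptor of ventricular and vascular ATP-sensitive potassium channels. It measured 489, 422, 452 and 505 in control ventricles and 199.7, 187, 212 and 260.5 in idKO ventricles, against 54.1, 41.4, 50.98 and 51.5 and 46.4, 56.9, 47.9 and 55.3 in atria. Ventricular values fell without overlap and atrial values overlapped (interaction 1.19 ± 0.10, limma adjusted p = 9.4e-06). Abcc9 is also a marker of pericytes. The summed level of the other 9 smooth muscle and pericyte markers was 914 to 983 in control ventricles and 859 to 1111 in idKO ventricles; its part in the fall of Abcc9 was not tested. Gja1 (chromosome 10, 56377330 to 56402513) encodes the main connexin of ventricular muscle and measured 523, 375, 415 and 432 in control ventricles. In idKO ventricles it measured 199, 178, 209 and 218, below all 8 atria, which stood at 396, 268, 283 and 267 in controls and 252, 328, 321 and 308 in idKO mice (interaction 1.12 ± 0.10, limma adjusted p = 1.5e-05). The other connexins tested, Gja5 and Gjc1, had interactions of -0.33 and -0.30 and were not called. Kcnh2, the channel of the rapid delayed rectifier current, measured 127 ± 14.9 in control and 69.1 ± 11.6 in idKO ventricles and 232 ± 19.7 and 195 ± 19.6 in atria (interaction 0.62). Its genotypes did not overlap in ventricles. In atria they all but met, with the lowest control at 215.12 and the highest idKO library at 215.08, and the atrial difference was not called (limma adjusted p = 0.97). Of 23 listed and tested potassium channel genes Abcc9 and Kcnh2 were called, and Kcne1 (-0.93) and Kcnd3 (-0.46) came closest among the rest. The subunit genes Kcng2 and Kcnv2, outside that list, were called too.

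Sodium and calcium channel genes were also called. Scn10a, a sodium channel gene on chromosome 9, measured 3.15, 3.78, 3.17 and 4.42 in control and 1.18, 1.31, 1.02 and 0.835 in idKO ventricles, and 12.7 ± 1.64 and 12.8 ± 2.01 in atria. Its interaction was 1.15 ± 0.19 (limma adjusted p = 0.0078; 0.079 with a pseudocount of 5), and each idKO ventricle was below each control ventricle. Cacna2d1, an accessory calcium channel subunit, had an interaction of 0.34 ± 0.07 (limma adjusted p = 0.038; 0.052 to 0.12 without any mouse but CDA292), and the pore-forming Cacna1c one of 0.34 that was not called (limma adjusted p = 0.10). Hcn4 (chromosome 9, 58823412 to 58863175), the pacemaker channel, measured 10.4, 11.8, 6.59 and 7.10 in control and 2.16, 2.84, 2.84 and 5.29 in idKO ventricles, and 21.996, 22.97, 13.9 and 24.9 and 17.4, 17.9, 18.5 and 27.1 in atria. The ventricular values were low and separate, and the atrial ones overlapped (interaction 1.19 ± 0.19, limma adjusted p = 0.0057; 0.22 without the mouse as a block). It was the only 1 of 16 tested pacemaker and conduction genes called; Irx3, a regulator of the ventricular conduction system, had an interaction of 1.06 (limma adjusted p = 0.087).

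Genes of calcium release and of the cell junctions followed. Ryr2, through which stored calcium leaves the sarcoplasmic reticulum, measured 2379, 2090.2, 2395 and 2505 in control ventricles and 1542, 1253, 1464 and 1680.2 in idKO ventricles, with 2070.3 ± 142 and 1892 ± 115 in atria (SD, n = 4). The ventricular groups did not overlap (interaction 0.53 ± 0.07, limma adjusted p = 0.0018). It was the only 1 of 21 tested calcium handling genes called, though 15 had a positive interaction (median 0.18, against 0.01 over all tested genes, and 13 positive with column-sum scaling), and DESeq2 called 4, all positive; the sodium-calcium exchanger Slc8a1 was at 0.42 and the calcium pump Atp2a2 at 0.25. Lrrc10, a cardiac leucine-rich repeat protein, measured 215, 263, 229 and 234 in control and 121, 121, 96.6 and 118 in idKO ventricles, and 92.9, 122, 123 and 121 and 107, 137, 81.5 and 109 in atria. The idKO ventricles lay in the atrial range (interaction 0.94 ± 0.09). Ctnna1, which links cadherins to actin at the intercalated disc, measured 874 ± 44.1 in control and 602 ± 12.2 in idKO ventricles and 885 ± 52.9 and 799.6 ± 28.8 in atria. With Gja1 they made 3 of 19 tested junction genes, and the median of that list was 0.02. Bin1 (chromosome 18, 32377230 to 32435737), which bends membranes into transverse tubules, measured 6.98, 6.11, 5.38 and 6.61 in control ventricles and 11.3, 16.2, 13.7 and 9.66 in idKO ventricles. In atria it measured 14.2, 12.1, 11.2 and 12.6 and 13.2, 11.6, 15.4 and 8.45, so 3 of the 4 idKO ventricles lay in the atrial range (interaction -0.96 ± 0.18, limma adjusted p = 0.016, and 0.063 without idKO mouse CDA289). No other of the 11 tested transverse tubule and dyad genes was called.

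Most sarcomere genes gave no call. Of 30 tested, 3 did: Nebl, a thin-filament protein of the Z-disc, with an interaction of 0.52 ± 0.08, and Myom2 and Tnnt1 on the other side. Myom2, an M-band protein, measured 1457, 1322, 1966 and 1794 in control and 2341, 2566, 2544 and 2101 in idKO ventricles, and 1414 ± 135 and 1461 ± 133 in atria (interaction -0.51 ± 0.09). All idKO ventricles exceeded all control ventricles, but the ventricular difference by itself was not called (limma adjusted p = 0.052). Tnnt1, the slow skeletal troponin T, measured 14.9 ± 1.65 in control and 22.3 ± 2.69 in idKO ventricles (interaction -0.75 ± 0.16, limma adjusted p = 0.039, and 0.082 to 0.14 without any mouse but CDA291 and CDA293). Mylk4, a myosin light chain kinase of heart muscle, measured 371 ± 40.6 and 171 ± 27.4 in ventricles and 218 ± 11.96 and 194 ± 21.03 in atria (interaction 0.95 ± 0.14). The slow myosin heavy chain Myh7 varied by mouse: it measured 53.1, 1404, 48.3 and 54.3 in control atria, 82.04, 38.3, 1303 and 1472 in idKO atria, 519, 2186, 443 and 335 in control ventricles and 682, 1367, 2832 and 2049.8 in idKO ventricles. Mice CDA292, CDA290 and CDA291 were high in both chambers, and the interaction was -0.02.

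**Figure D3:**
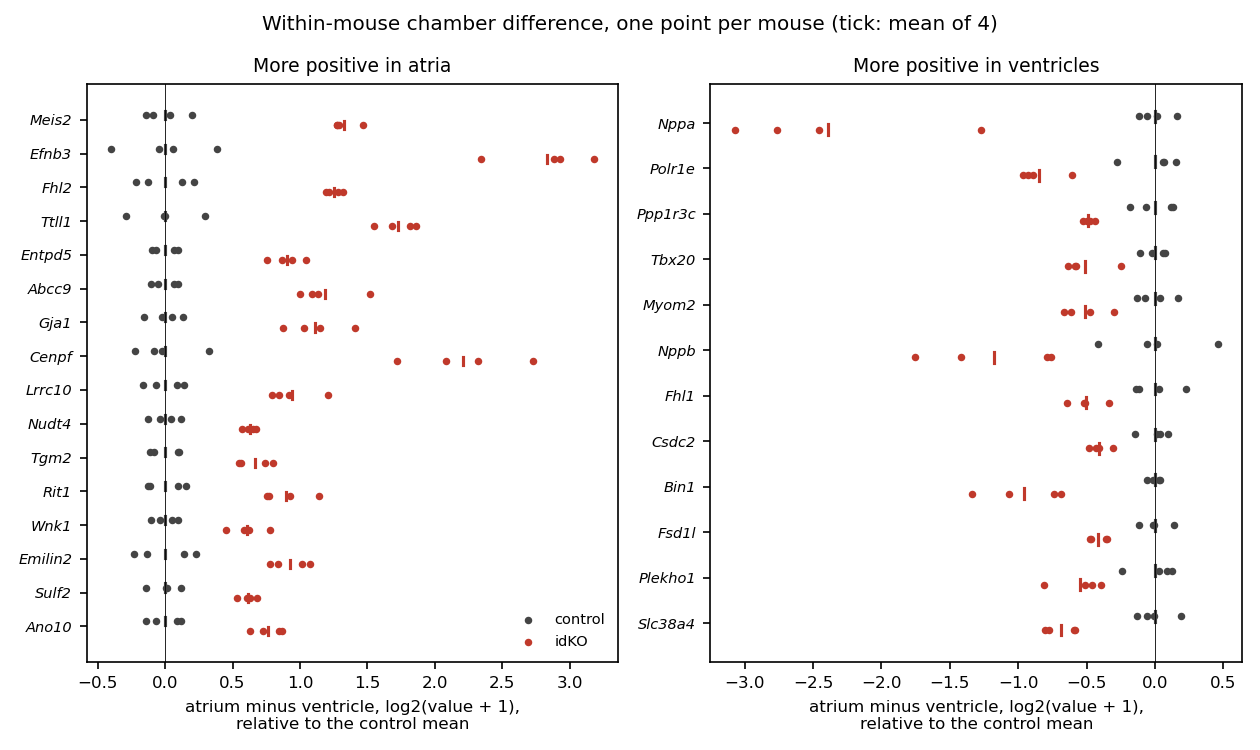
The atrium minus ventricle difference of log2(value + 1) in each mouse, set to the control mean of its gene, for 16 genes more positive in atria (left) and 12 more positive in ventricles (right); short vertical lines are means of 4 mice. These genes were picked for differences that do not overlap between genotypes. By that choice the red idKO points lie to the right of all grey control points in the left panel and to the left of them in the right panel. In the right panel Nppa and Nppb are the most scattered.

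Some chamber identity genes were called. Over all tested genes the share called was 0.686%, and 7765 of 14871 had a positive interaction. Of 17 tested ventricular identity genes 4 were called, Fhl2, Irx4 and Mpped2 more positive in atria and Tbx20 more positive in ventricles. The list's median was -0.23 in ventricles and 0.06 in atria, and 15 members had a positive interaction (12 with column-sum scaling, 14 with quantile normalisation). Irx4, a homeodomain factor of ventricular muscle, measured 35.9, 38.02, 42.7 and 38.1 in control and 23.9, 20.96, 31.1 and 23.7 in idKO ventricles. In atria it measured 0.0387, 0.0299, 0.0353 and 0.201 in controls and 0.351, 0.5003, 0.573 and 0.135 in idKO mice, all under 1. Mpped2, a phosphodiesterase, measured 23.3, 22.6, 24.8 and 24.9 and 14.3, 15.3, 13.1 and 12.997 in ventricles and 0.425, 0.329, 0.670 and 0.0859 and 0.819, 1.23, 0.956 and 0.297 in atria. Their interactions of 0.99 ± 0.21 and 1.14 ± 0.23 include a higher level in idKO atria, where Myl2 was higher too, and the part of ventricular transcript in the atrial samples in these values was not tested. Neither was called by edgeR or DESeq2 on the recovered reads, and the limma adjusted p was 0.077 to 0.14 without any mouse but CDA291 for Irx4 and 0.060 to 0.11 without any mouse but CDA291 and CDA293 for Mpped2. Myl2 itself had an interaction of 2.203 ± 0.88 that was not called (limma adjusted p = 0.39). Tbx20, a T-box factor needed for chamber muscle, measured 119, 112, 97.7 and 108 in control and 164, 140.3, 150.2 and 133 in idKO ventricles, and 189.7 ± 23.96 and 178 ± 17.1 in atria (interaction -0.51 ± 0.08). Among 15 tested atrial identity genes only Pam, the enzyme that amidates peptide hormones and a membrane protein of atrial granules, was called. It measured 1028, 1083, 996 and 1045 in control and 1490.3, 1286, 1497 and 1165 in idKO ventricles and 11037 ± 549 and 10118 ± 993 in atria (interaction -0.51 ± 0.10, limma adjusted p = 0.024); leaving out any mouse but CDA291 ended the call (0.059 to 0.098). The atrial list's median interaction was -0.04, and 0.03 with quantile normalisation. None of 20 tested core cardiac transcription factors was called, with a median of -0.01.

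The natriuretic peptide genes Nppa and Nppb were higher in idKO ventricles. Nppa (chromosome 4, 148000722 to 148002079) measured 159, 218, 189.6 and 174 in control ventricles and 1357, 1635, 989 and 478 in idKO ventricles. In atria, its main source, it measured 20734, 27316, 26059 and 26466 and 26982, 26269, 24435 and 26842. All idKO ventricles exceeded all control ventricles, with mouse CDA291 the lowest, and the atria overlapped (interaction -2.39 ± 0.26, limma adjusted p = 1.6e-04). Nppb (chromosome 4, 147985788 to 147987205) measured 124, 156, 105 and 135 in control and 237, 349, 315 and 290.5 in idKO ventricles, and 246, 397, 384 and 362 and 369.6, 345, 247 and 445 in atria. All idKO ventricles exceeded all control ventricles, and 3 of the 4 lay in the range of the atria (interaction -1.18 ± 0.20, limma adjusted p = 0.0079). Corin, the protease that cuts the Nppa precursor, went the other way: 399.5 ± 39.3 in control and 284 ± 24.6 in idKO ventricles, 591 ± 50.2 and 542 ± 23.4 in atria (interaction 0.37 ± 0.06, limma adjusted p = 0.0095; 0.077 with column-sum scaling and 0.13 with quantile normalisation). The other 5 tested genes of peptide processing and reception were not called; Furin was at 0.21 and the clearance receptor Npr3 at 0.19.

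Of 19 tested wall stress and hypertrophy genes, 3 were called, Nppa, Nppb and Ctgf, and the list's median was 0.29 in ventricles and 0.01 in atria. Ctgf, a matricellular protein of fibrosis and stretch, had its larger difference in atria: 349, 362, 465 and 409 in control and 392.4, 721, 532 and 518 in idKO atria, 80.4, 90.1, 111 and 133 and 79.8, 122, 86.6 and 68.1 in ventricles. The groups overlapped in both chambers, and the interaction of 0.64 ± 0.12 (limma adjusted p = 0.018) passed on the within-mouse differences. That p was 0.053 to 0.055 without CDA290 or CDA294, 0.081 with column-sum scaling and 0.65 without the mouse as a block. Ankrd1 and Tnfrsf12a, both induced by stretch, had interactions of -0.47 and -0.70 and no call. The skeletal actin Acta1 measured 627, 1031, 943 and 629 in control and 1458, 2079, 4004 and 1613 in idKO ventricles. In atria it measured 1.97, 8.75, 3.63 and 2.55 and 9.32, 11.8, 96.4 and 1.75, with 1 high library, mouse CDA290, which also had the highest atrial Myl2.

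Signalling, matrix and enzyme genes made up the rest of the named genes more positive in atria. Gpr22, an orphan receptor of heart and brain, measured 73.4, 46.2, 56.3 and 61.3 in control and 23.9, 16.1, 14.5 and 19.7 in idKO ventricles, and 9.92 ± 1.75 and 8.23 ± 1.23 in atria (interaction 1.39 ± 0.19, limma adjusted p = 0.0018). The other 22 tested receptors and cyclases, such as Adrb1 (-0.18) and Adcy6 (0.24), were not called. Rit1, a small GTPase of the RAS family, measured 76.2, 90.7, 87.1 and 84.3 in control and 50.7, 40.01, 47.6 and 46.8 in idKO ventricles, with the atria at 47.3 ± 2.45 and 48.7 ± 2.96. Nudt4, which hydrolyses inositol pyrophosphates, is higher in atria and fell in ventricles from 379 ± 43.3 to 219 ± 16.8 (SD, n = 4), while the atria measured 1351 ± 125 and 1212 ± 116. Apobec2, a muscle member of the deaminase family, measured 251, 254, 248.5 and 245 in control and 189, 188, 189 and 191 in idKO ventricles, and 139, 138, 133 and 143 and 137, 137, 156 and 144 in atria, for an interaction of 0.45 ± 0.07; the ventricular groups were tight and apart. Ventricular falls with atrial levels that overlapped were also seen for the crosslinking enzyme Tgm2 (interaction 0.67), the kinase Wnk1 (0.61), the matrix proteins and modifiers Emilin2 (0.93) and Sulf2 (0.61), the coagulation inhibitor Tfpi (0.53), and Ano10 (0.77), Doc2g (0.51) and Mtus2 (0.69). Their limma adjusted p ran from 2.5e-04 (Tgm2) to 0.0042 (Tfpi).

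On the side more positive in ventricles, Polr1e, a subunit of RNA polymerase I, measured 28.5, 26.6, 24.8 and 24.9 in control and 57.9, 53.98, 53.9 and 38.8 in idKO ventricles and 12.5, 15.02, 13.9 and 14.98 and 16.2, 14.6, 15.4 and 13.5 in atria. The idKO ventricles were the 4 highest libraries (interaction -0.85 ± 0.13, limma adjusted p = 0.0051), and none of the other 13 tested genes of that machinery was called. Slc38a4, an amino acid transporter, measured 10.3, 11.6, 11.5 and 13.04 in control and 17.04, 15.5, 19.2 and 20.2 in idKO ventricles, the latter within the range of the atria (interaction -0.69 ± 0.13, limma adjusted p = 0.024, and 0.055 to 0.090 without any mouse but CDA288, CDA291 and CDA292). Plekho1 had an interaction of -0.55 ± 0.11 and a called ventricular rise (limma adjusted p of the interaction 0.024, and 0.051 to 0.087 without any mouse but CDA287, CDA289 and CDA291). Ppp1r3c, which targets a phosphatase to glycogen, Csdc2, Fsd1l and Ndnf had interactions of -0.49, -0.41, -0.41 and -0.61 without a called ventricular difference (limma adjusted p = 0.12, 0.16, 0.067 and 0.13). For Ppp1r3c the control ventricles spread from 94.8 to 164 and the control atria from 104 to 146, with the same mice lowest and highest. The interaction's limma adjusted p was 0.062 to 0.086 without any mouse but CDA289, CDA291 and CDA294 for Fsd1l, and 0.070 to 0.11 without any mouse but CDA287 and CDA291 for Ndnf. For Ppp1r3c it was 0.0055 with the mouse as a block and 0.52 without.

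Among genes of energy supply, small positive interactions were frequent and calls were few. Over all 14871 tested genes, 7765 had a positive interaction. All 43 tested nuclear genes of the respiratory chain had a positive interaction, from 0.06 to 0.23 (median 0.14), and none was called; Cox7a1 had the smallest p (limma adjusted p = 0.14). The median difference was -0.19 in ventricles and -0.04 in atria. The number with a positive interaction was 39 with column-sum scaling and 37 with quantile normalisation, with medians of 0.05 and 0.06. The tricarboxylic acid cycle list had 26 of 26 positive (median 0.11; 19 under each of those scalings) and no call, and the fatty acid list 30 of 33 (median 0.11; 21 and 25). Its 1 call was Etfa, an electron carrier of fatty acid oxidation, at 1129 ± 32.2 in control and 888 ± 77.5 in idKO ventricles and 399.7 ± 26.1 and 404 ± 30.9 in atria (interaction 0.37 ± 0.07, limma adjusted p = 0.024). That p was 0.075 and 0.15 under those scalings and 0.082 to 0.090 without any mouse but CDA288, CDA291 and CDA293. Of 30 tested glycolysis and hypoxia genes 21 were positive (17 and 18 under those scalings). The only 1 called was Ldhb, the heart lactate dehydrogenase subunit (interaction 0.31 ± 0.06, limma adjusted p = 0.038, 0.084 and 0.12 under those scalings and 0.077 to 0.13 without any mouse but CDA291 and CDA293). With column-sum scaling 2 other genes of that list were called negative. On the recovered reads DESeq2 called 3 of the list positive and 2 negative, and edgeR called none. The share of reads from the mitochondrial genome moved with these lists in ventricles, at 30.9% in controls and 29.0% in idKO mice, and its part in the shift was not tested.

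**Figure D4:**
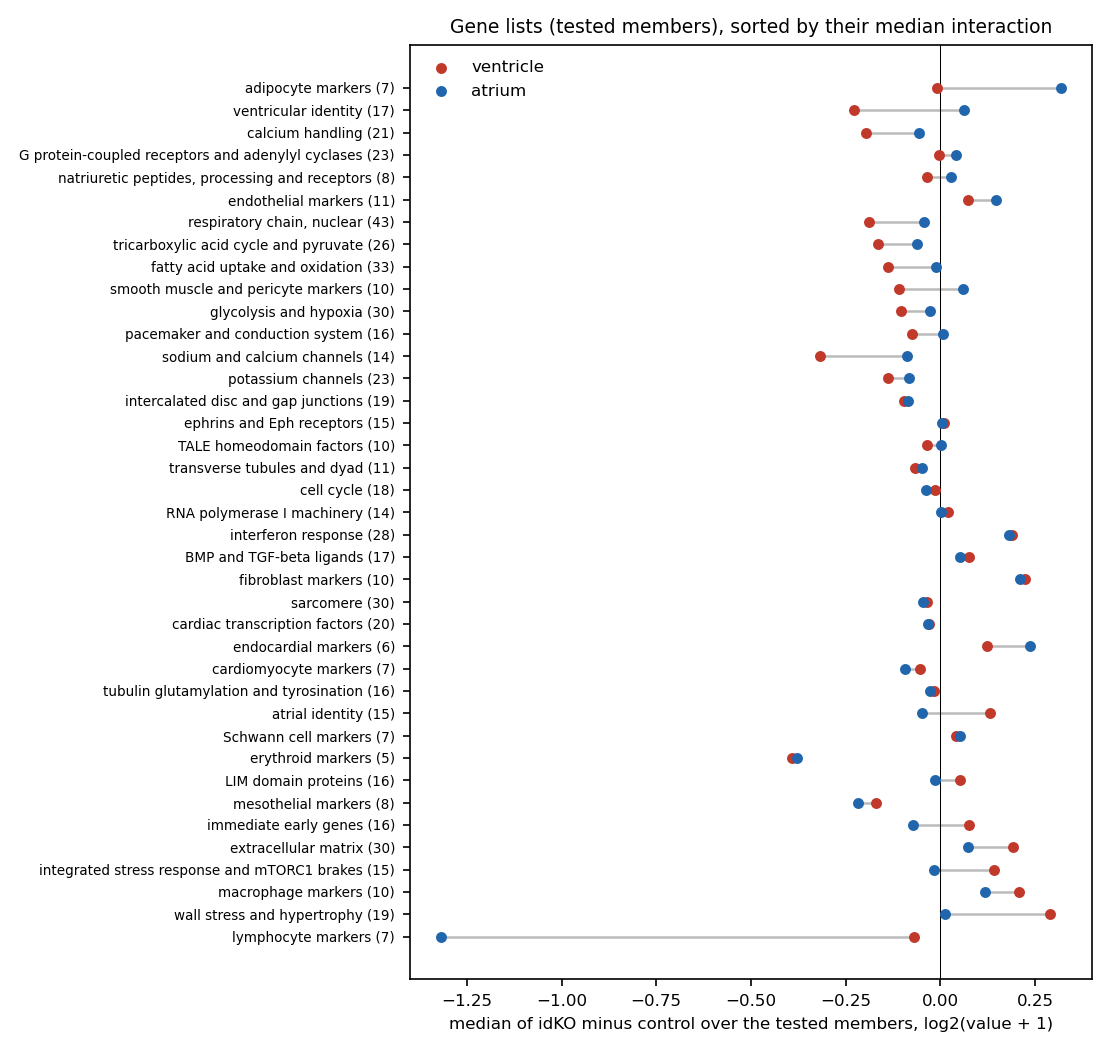
Median idKO minus control difference over the tested members of 39 gene lists (number of members in brackets) in ventricles (red) and atria (blue), in log2(value + 1), ordered by median interaction. Apart from the lymphocyte, erythroid and adipocyte markers, the sodium and calcium channels and the wall stress list, both medians lie within 0.25 of 0; the lymphocyte markers, at -1.32 in atria, lie farthest out.

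Markers of the other cell types gave no called gene apart from Abcc9, as counted over fibroblast, endothelial, endocardial, macrophage, lymphocyte, smooth muscle, mesothelial, Schwann, adipocyte and erythroid lists. The lymphocyte markers had the median interaction farthest from 0, -1.14, with 7 of 7 negative and none called. Their summed level was 151 to 683 in control atria and 16.8 to 412 in idKO atria, but only 9.48 to 17.2 and 11.8 to 17.2 in ventricles. Ighm encodes the heavy chain of immunoglobulin M, made by B cells. It measured 213, 198, 619.7 and 128 in control atria and 358, 7.91, 180.5 and 11.8 in idKO atria. The idKO mice CDA289 and CDA291 were thus low, and the groups overlapped. Ucp1, a gene of brown fat, measured 4.45, 0.329, 101 and 21.2 in control and 26.4, 26.98, 58.6 and 27.99 in idKO atria and under 1 in every ventricle. Fibroblast markers summed to 2354 to 2665 in control and 2448 to 3712 in idKO ventricles, macrophage markers to 401 to 425 and 454 to 546. In atria the fibroblast sums were 4189 to 5815 and 4834 to 6204, and the macrophage sums 473 to 597 and 498 to 601. The macrophage sums were thus higher in every idKO ventricle than in any control ventricle and overlapped in atria. Endothelial marker sums were apart in atria, at 1427 to 1504 in control and 1552 to 1719 in idKO mice. In ventricles they overlapped, at 1139 to 1198 and 1162 to 1243. The part of the macrophage and endothelial sums in the other results was not tested. No interaction was called among the listed 30 extracellular matrix genes, 28 interferon response genes, 16 immediate early genes or 15 genes of the integrated stress response. Their medians were -0.09, 0.01, -0.08 and -0.10. The matrix list does not hold Emilin2 and Sulf2, which were called.

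Some genes changed in ventricles with an atrial effect of like direction. By a rule chosen after the values were seen (a called ventricular difference of at least 0.5 in size, the same sign in atria, no called interaction, both bounds of its 95% interval smaller in size than the ventricular difference, and a group mean of at least 5 CPM), 12 genes were kept. Lipo2, a lipase family member, measured 0.286, 0.487, 0.956 and 0.742 in control and 7.401, 7.66, 7.46 and 6.16 in idKO ventricles, and 0.425, 0.567, 0.882 and 0.716 and 3.39, 5.57, 5.27 and 6.94 in atria; it was called in both chambers and its interaction was -0.44 (95% interval -1.002 to 0.12). Ddit4, a stress-induced brake on mTORC1, measured 42.6 ± 12.3 and 79.6 ± 16.97 in ventricles and 24.3 ± 9.96 and 49.2 ± 17.3 in atria, with an interaction of 0.09 (-0.17 to 0.35). Ide, a protease that degrades insulin, measured 201 ± 29.6 and 129 ± 23.7 in ventricles and 126 ± 15.96 and 84.4 ± 21.7 in atria, with an interaction of 0.04 (-0.13 to 0.21). The MHC class II genes H2-Ab1 and H2-Aa, of antigen-presenting cells, had interactions of -0.34 (-0.62 to -0.06) and -0.24 (-0.49 to 0.01). Their ventricular differences were 0.69 and 0.65. The others were Slc4a3, Adamts1, Gm45140, Klhl33, 2810474O19Rik, Ezr and Acta1. Apart from Acta1 (-0.97 to 1.24), each had an interval with both bounds of the same sign, such as 0.19 to 0.53 for Slc4a3 (limma adjusted p = 0.059). For those genes and H2-Ab1 a like size in both chambers was not shown. Only Lipo2 of the 12 genes passed the test in atria alone, so the atrial effect of the others is a value and not a call. In atria the limma adjusted p was 0.78, 0.78, 0.78 and 0.37 for Ddit4, Ide, H2-Ab1 and H2-Aa.

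Just inside the threshold stood Ppip5k2, Antxr2 and Yipf7, with interactions of 0.49, 0.34 and 0.38 and limma adjusted p of 0.045, 0.045 and 0.046. Each of these lost its call when any of 6 or 7 of the 8 mice was left out. Just outside stood Il15, Nrtn and Canx, with interactions of 0.84, 0.49 and 0.25 and limma adjusted p of 0.053, 0.057 and 0.057. Of the 102 called genes, 25 had an interaction of at least 1 in size. The calls of Sms-ps, Taf9, Gm14267, Rab11b-ps2 and Gm10123, of which Sms-ps and Rab11b-ps2 are pseudogenes by name, are uncertain. Reads shared with any near-identical gene may have been divided between the copies. The 8 mice are separate animals, so the errors given are between mice. The SE of an interaction is the moderated one of limma, drawn towards the trend over all genes. It can be smaller or larger than an SE from a gene's own spread alone. For Nppa the SD of the within-mouse difference was 0.118 in control and 0.788 in idKO mice, beside an SE of 0.26.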

How the data were processed

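Polyadenylated RNA of atria and ventricles from 8 mice was sequenced, 16 libraries in 4 groups of 4. The submitters' processing notes name cutadapt, RSEM 1.3.1 and GRCm38. The authors deposited a normalised signal on a CPM scale, (reads + 0.5) over an effective library size, from which whole reads were recovered for 100% of values within 0.01. Effective size was 0.947 (control) and 0.958 (idKO) of recovered reads in atria, against 0.639 and 0.687 in ventricles. The sources used here do not name the scaling tool.

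The within-mouse atrium minus ventricle difference of log2(value + 1) was compared between 4 idKO and 4 control mice with limma 3.58.1 in R 4.3.3 (two-sided, variance prior with a trend on the mean level, Benjamini-Hochberg over 14871 genes, threshold 0.05). The pseudocount understates changes of low genes. This is the fit with the mouse as a block: both chambers came from 1 animal, and the atrial and ventricular deviations of a mouse had a correlation of 0.188 to 0.325 over 14871 genes, in all 8 cases higher than with any other mouse's. The design had named a count test for raw counts; the form for scaled values was used. Single chambers were fitted alike on 8 libraries each. Alternatives were edgeR 4.0.16 and DESeq2 1.42.0 on the recovered reads, other scalings, filters, pseudocounts and priors, and each mouse left out. The scripts were tested on simulated data.

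Genes named were Meis1, Meis2, Meis3, Pbx3, Esr1 and Myh6; up to 24 called genes more positive in atria and 16 more positive in ventricles with the smallest p, non-overlapping mice and a group mean of at least 5 CPM, without predicted names; called members of the lists and up to 2 uncalled ones with the smallest p; and genes at the threshold. Some results are not reported here. Other list members quoted beside them were chosen after their values were seen. The members and lists were chosen with earlier results of these data known. Positions are from GENCODE for GRCm38.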

Additional observations from a re-analysis of the deposited data

Results flagged for a closer look

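The genotype effect differed between atrium and ventricle for 102 genes by the test of the difference itself, as described above. Within-mouse differences of the 65 named genes were also searched for a mouse far from the other 3 of its genotype, by Dixon's test at its 95% critical value for 4 samples. Of 130 groups of 4 looked at, 6 (4.62%) had 1, and chance alone gives about 1 in 20. In log2 units of atrium minus ventricle, Meis2 was 1.07 in idKO mouse CDA289 (median of the other 3 mice 0.88) and Hcn4 was 1.68 in control mouse CDA294 (0.98). Tfpi was 0.19 in control mouse CDA293 (0.39). In idKO mouse CDA291, Tbx20 was 0.54 (0.20), Pam 3.27 (2.79) and Ndnf 2.14 (1.85), each nearer to the control mice than the other idKO mice were. Mouse CDA291 also had the lowest ventricular Nppa of the 4 idKO mice and the highest atrial Esr1, and no cause was tested.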

How the results depend on the processing

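The count of 102 called interactions was 44 without the mouse as a block (no replicate block; 40 more positive in atria and 4 in ventricles, all 44 among the 102) and 71 with the replicate block as a random effect (54 and 17, 65 shared). Without the trend in the variance prior it was 13 (12 and 1, all shared), and with a robust prior 128. Other settings gave 71 (no filter) to 143 (DESeq2 on recovered reads, 104 and 39, 99 shared), with edgeR at 82, and leaving out 1 mouse gave 68 to 122, lowest without control mouse CDA294. Of the 102, 11 were called under all 23 alternatives and 29 under all but the fit with no trend. Among 57 named called genes 11 kept the call throughout, 12 lost it under 1 alternative, 19 under 2 to 5 and 15 under 6 or more, and 0 changed sign. The ventricular count of 206 was 72 without the trend and 537 by DESeq2, and 89 to 256 with 1 mouse left out (107, 114, 101, 89 and 92 without CDA289, CDA290, CDA292, CDA293 and CDA294). The atrial count of 3 was 16 by DESeq2 and 3 to 6 with 1 mouse left out (5, 6 and 5 without CDA287, CDA291 and CDA292). The uncalled interactions of Pbx3 (-0.06) and Myh6 (-0.04) changed sign when 1 mouse was left out, over ranges of -0.165 to 0.104 and -0.0951 to 0.0143. With the hexamer sought in the 250 bases before the start alone the share among called genes was 31.2%. With 4 mice a genotype the median standard error of an interaction was 0.16 over all tested genes. A call needed a difference several times its standard error. At the threshold, Yipf7 at 0.38 ± 0.08 was called and Canx at 0.25 ± 0.06 was not, so a gene without a call can still differ between chambers. The causes of these changes were not tested.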

Other observations

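Other called genes, chosen here after their values were seen, add to the groups above. Rbfox1, a splicing regulator of muscle and brain, measured 52.5 ± 4.13 in control and 28.01 ± 5.10 in idKO ventricles and 67.96 ± 5.54 and 58.5 ± 2.71 in atria (SD, n = 4). Fgf13, a modulator of sodium channels, measured 83.5 ± 3.54 and 54.8 ± 4.74 in ventricles and 35.5 ± 4.30 and 36.3 ± 4.51 in atria, and Fgf16, a growth factor of heart muscle, 28.02 ± 3.28 and 12.4 ± 1.74 in ventricles and about 1 in atria (1.03 ± 0.461 and 0.978 ± 0.432). The electrically silent potassium channel subunits Kcng2 and Kcnv2 had interactions of 0.39 and 0.80, the monocarboxylate transporter Slc16a7 1.17 and the cytokine receptor Lifr 0.53. On the other side, Il13ra1, a receptor for interleukin-13, measured 73.1, 75.8, 65.8 and 66.7 in control and 105, 102, 106 and 102 in idKO ventricles, and Gnao1, a G protein subunit, had an interaction of -0.62. Gcnt1, a glycosyltransferase, measured 8.54, 10.6, 5.89 and 18.6 in control and 45.8, 51.02, 12.7 and 56.001 in idKO ventricles and 21.8, 15.5, 15.9 and 29.6 and 43.8, 56.9, 16.1 and 51.04 in atria. Mouse CDA290 was low and the other 3 idKO mice were high in both chambers. Control mouse CDA294 was the highest control in both, and the groups overlapped in each. The Gcnt1 interaction of -0.86 appeared only in the within-mouse differences. Of the 23 alternatives, Fgf16 was called under 7, Kcnv2 under 11, Il13ra1 under 12, Gnao1 and Gcnt1 under 13 and Rbfox1 under 14. Fgf13 was called under 17, Kcng2 under 20, and Slc16a7 and Lifr under 22.

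Gm36827, an intergenic noncoding gene (chromosome 10, 56970329 to 56982232), measured 37.7, 31.5, 38.8 and 35.2 in control and 3.23, 5.63, 4.43 and 10.6 in idKO ventricles and 0.981 ± 0.641 and 0.924 ± 0.375 in atria, with an interaction of 2.49 ± 0.33 (limma adjusted p = 0.0014).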
